A study of Mus musculus with 6 samples.

Results

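The genes described here are 46 genes of skeletal muscle, measured in cultures of primary brown adipocytes from mice. They encode the contractile filaments of the muscle fibre, the Z-disc and scaffold proteins that hold the filaments in register, the channels and pumps that turn excitation into a calcium signal, proteins of the muscle energy supply, and the transcription factors of the muscle lineage. The genes were chosen by name as a group with the RPKM values of these 6 cultures already known, and the transcript shown for each was selected on its mean over the cultures, the highest RefSeq transcript of the gene, with no minimum. All 46 had such a transcript among the 22466 RefSeq gene symbols in the data. Because the values were known when the genes were listed, the order of the cultures is given as a description, and the one comparison tested is that between the genotypes.

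Precursor cells came from the interscapular brown fat of young male mice of the strain labelled 129SvEvS1, either WT or Ucp1-KO, which carry a disrupted gene for uncoupling protein 1, the heat-producing proton carrier of brown fat. Both groups were grown to confluency, induced with IBMX, indomethacin, dexamethasone, insulin, T3 and rosiglitazone, and kept in medium with insulin, T3 and rosiglitazone until differentiated. The labels number the 3 cultures from WT mice as replicates 10, 11 and 12, and the 3 from Ucp1-KO mice as replicates 13, 14 and 15. Each culture had 14989604 to 17727653 reads, as computed from the deposited values. The sources used here do not say whether each culture came from 1 animal or from pooled animals, so the p-values measure the spread between these cultures.

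Brown adipocytes and skeletal muscle fibres are close relatives. Much of the interscapular brown fat and of the back muscle arises from dermomyotome cells that have passed through Myf5 expression, and the regulator Prdm16 directs such precursors towards the brown fat fate. In the muscle lineage Pax7 marks the satellite cells, Myf5 and Myod1 commit cells to myoblasts, and Myog drives the exit from the cycle and the fusion into myotubes, in which embryonic and perinatal myosins (Myh3, Myh8) precede the adult forms. In bulk RNA a lower number of cells of a type and less RNA per cell cannot be told apart.

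The cultures carried the genes that define their labelled cell type. Fabp4, the fatty acid carrier of adipocytes, lay between 26399 and 29312 RPKM (reads scaled by transcript length and by the depth of the library), and Adipoq, the gene of the hormone adiponectin, between 1135 and 1714 RPKM. Ucp1 itself was at 1775, 981 and 1157 RPKM in WT and at 307, 409 and 398 RPKM in Ucp1-KO, so the groups did not overlap and transcript of the disrupted gene was still counted in the knockout cultures. The 46 muscle genes summed to 62.2, 44.3 and 47.9 RPKM in the WT cultures and to 86.1, 33.6 and 77.6 RPKM in the Ucp1-KO cultures. Their sum was thus below Fabp4, Adipoq and Ucp1 in every culture, and both the highest and the lowest sum belonged to Ucp1-KO cultures. The brown fat regulators Prdm16, at 2.44 to 3.28 RPKM, and Ppargc1a, at 7.12 to 16.0 RPKM, stood under this sum in every culture.

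Of the 46 genes, 44 had at least 1 read and 2 had none in any culture. More than 3 reads, the number taken as the floor of detection, were found for 27, 19 and 19 of the genes in WT replicates 10, 11 and 12, and for 35, 19 and 33 of them in Ucp1-KO replicates 13, 14 and 15. Only 12 genes reached a mean of 1 RPKM, and they were led by Tpm2, Mb, Mybph, Tnnc1, Des and Acta1. The other 34 genes together came to 4.15, 3.31 and 2.50 RPKM in WT and to 12.1, 1.95 and 10.3 RPKM in Ucp1-KO.

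One order of the cultures recurred across most of the list. Ucp1-KO replicate 13 held the highest value of 18 genes and Ucp1-KO replicate 15 that of another 18, whereas WT replicates 10, 11 and 12 and Ucp1-KO replicate 14 held the highest value of 3, 3, 1 and 1 genes. Both replicates 13 and 15 stood above the 4 other cultures for 27 of the 44 genes with a read, and for 20 of these 27 the third culture was WT replicate 10. By reads alone it held for 25 of the 27, with Mybpc2 and Myoz1 the exceptions, and among genes with at least 30 reads in all it was 17 of 28. This count was made for a pair of cultures chosen after the values were seen. Of all 17455 RefSeq genes with a read, 4.92% had this pair on top, and 6.73% of those with a mean under 1 RPKM.

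The cultures of 1 genotype differed from each other. Within the Ucp1-KO group, 40 of the 44 genes were higher in replicate 13 than in replicate 14, and 36 were higher in replicate 15 than in replicate 14, against 39.9% and 42.2% of all RefSeq genes with a read. Within the WT group, 31 genes were higher in replicate 10 than in replicate 11, and 32 were higher than in replicate 12, against 31.4% and 36.0% of all genes. Between replicates 13 and 15 the list was divided, with 20 genes higher in the former and 23 in the latter. It was divided also between WT replicates 11 and 12, with 18 genes higher in the former and 17 in the latter. Of all genes 54.2% were higher in WT replicate 11 than in WT replicate 12.

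**Figure D1:**
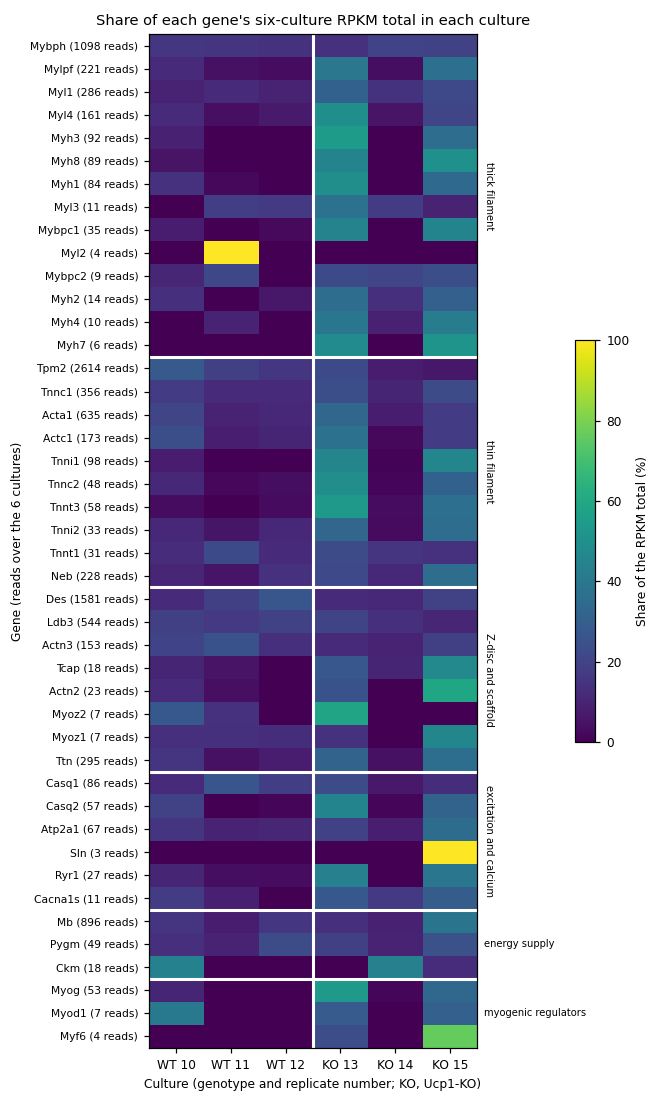
Share of each gene's six-culture RPKM total (colour, in percent) in each culture (columns, with KO for Ucp1-KO), for the 44 genes with a read, by role and with the reads over all cultures in brackets. The bright columns are Ucp1-KO replicates 13 and 15, each holding the highest value of 18 genes, and the bright single cells of Myl2 and Sln rest on 4 and 3 reads.

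The 250 bases before a listed start of 5 of the genes are shown because their order of cultures differed. Mylpf, Tnni1 and Tnnc2 had replicates 13 and 15 highest, Acta1 had replicate 13 followed by WT replicate 10, and Tpm2 had WT replicate 10 highest. Sequences are from RefSeq on GRCm38.p6, 5′ to 3′ in the direction of the gene, and capitals mark E-boxes, the kind of site that the MyoD family of factors binds, searched as CAGCTG, and as CAGGTG read on either strand. The windows are chr7:127211358-127211607 on the plus strand for Mylpf, chr1:135799171-135799420 on the plus strand for Tnni1 (1 of 2 starts listed with sequence), chr2:164779735-164779984 on the minus strand for Tnnc2, chr8:123894776-123895025 on the minus strand for Acta1 and chr4:43523555-43523804 on the minus strand for Tpm2. RefSeq lets Mylpf and Tnni1 begin further upstream, at 127208848 and 135783033, and the sequence before those starts was not used here. For Tpm2 it gives a start at 43523583, which lies inside the window shown, with the marked E-box before it.
Mylpf: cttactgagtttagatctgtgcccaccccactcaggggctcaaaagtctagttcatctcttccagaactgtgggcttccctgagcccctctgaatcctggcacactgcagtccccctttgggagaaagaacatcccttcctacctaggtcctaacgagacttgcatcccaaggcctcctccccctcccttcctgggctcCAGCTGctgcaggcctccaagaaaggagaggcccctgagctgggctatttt
Tnni1: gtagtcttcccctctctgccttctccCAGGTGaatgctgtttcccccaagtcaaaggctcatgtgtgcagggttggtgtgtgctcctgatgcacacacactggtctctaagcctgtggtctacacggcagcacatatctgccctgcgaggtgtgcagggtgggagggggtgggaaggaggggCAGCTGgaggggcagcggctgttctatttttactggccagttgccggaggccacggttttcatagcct
Tnnc2: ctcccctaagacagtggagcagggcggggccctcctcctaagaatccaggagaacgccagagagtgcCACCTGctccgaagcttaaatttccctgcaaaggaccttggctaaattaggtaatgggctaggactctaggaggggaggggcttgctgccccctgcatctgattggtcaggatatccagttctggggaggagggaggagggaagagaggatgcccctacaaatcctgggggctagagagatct
Acta1: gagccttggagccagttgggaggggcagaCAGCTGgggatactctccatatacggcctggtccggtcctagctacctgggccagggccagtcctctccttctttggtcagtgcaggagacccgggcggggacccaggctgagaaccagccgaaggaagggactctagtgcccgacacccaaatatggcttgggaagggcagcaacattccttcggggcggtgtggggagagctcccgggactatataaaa
Tpm2: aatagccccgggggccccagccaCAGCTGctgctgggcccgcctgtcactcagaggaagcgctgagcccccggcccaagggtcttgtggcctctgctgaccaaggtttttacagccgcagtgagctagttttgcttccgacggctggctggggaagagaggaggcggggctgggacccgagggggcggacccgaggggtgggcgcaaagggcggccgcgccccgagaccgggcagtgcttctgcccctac

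E-boxes stood in each of these 5 windows, also in that of Tpm2. Of the 46 genes, 37 had a promoter entry, and 23 of these (62.2%) held at least 1 of these E-boxes in at least 1 listed window, against 30.6% of 27025 genes with an entry. A match to the MEF2 site, searched by its consensus on both strands, stood in 6 of the 37 (16.2%), against 3.42% of all genes, and a match to the CArG box of serum response factor in 5 (13.5%), against 1.62%. Overlapping matches were counted, and a match is only a run of letters. Of the 21 genes with an entry that had replicates 13 and 15 highest, 11 held an E-box, 5 a MEF2 match and 1 a CArG match. Of the 16 other genes 12 held an E-box, 1 a MEF2 match and 4 a CArG match. There was no entry for Neb, Myf6, Tcap, Tnni2, Myod1, Actn3, Sln, Tnnt3 and Myoz1.

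The thick filament of the sarcomere is built of myosin heavy chains with their light chains and binding proteins. Its 14 genes summed to 11.4, 9.58 and 8.61 RPKM in WT and to 25.6, 11.3 and 21.7 RPKM in Ucp1-KO, and 11 of the 14 had Ucp1-KO replicates 13 and 15 highest. The fast regulatory light chain Mylpf was measured at 2.25, 0.794 and 0.598 RPKM in WT and at 7.30, 0.692 and 6.72 RPKM in Ucp1-KO. These values rest on 29, 10 and 8 reads in WT and on 89, 9 and 76 reads in Ucp1-KO. Replicate 14 thus lay among the WT cultures and well below the other 2 Ucp1-KO cultures, and the highest culture held 12.2 times the lowest (95% exact counting interval 5.94 to 29.2, which covers counting error only).

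The alkali light chain Myl1 stood at 1.77, 2.17 and 1.70 RPKM in WT and at 5.48, 2.57 and 3.89 RPKM in Ucp1-KO. It was the only gene tested whose genotypes did not overlap, although replicate 14 lay closer to the WT cultures than to replicate 13. Myl4, the embryonic and atrial light chain, was at 1.39, 0.475 and 0.830 RPKM in WT and at 5.61, 0.591 and 2.34 RPKM in Ucp1-KO, with replicate 14 again within the WT range. The ventricular and slow light chains had few reads. Myl2 had 4 reads in all, each of them in WT replicate 11, and Myl3 had 11 reads spread over 5 cultures.

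The myosin heavy chains stayed under 0.54 RPKM in every culture, and their reads lay almost wholly in 3 of the cultures. Embryonic Myh3 had 9, 0 and 0 reads in WT and 52, 0 and 31 reads in Ucp1-KO. Perinatal Myh8 had 5, 0 and 0 reads in WT and 41, 0 and 43 reads in Ucp1-KO. Adult fast Myh1 had 13, 2 and 0 reads in WT and 42, 0 and 27 reads in Ucp1-KO. Replicate 14 had no read of these 3 transcripts, whereas WT replicate 10 had all of them. The highest culture was at least 18.5 times the lowest for Myh3, at least 16.5 times for Myh8 and at least 14.9 times for Myh1, with 3 reads per library as the floor for the cultures at 0. These genes lie in 1 cluster of 230.4 kb on chromosome 11 (67078273 to 67308634, GRCm38.p6) and are close in sequence, so the assignment of short reads among them is uncertain. The other heavy chains, Myh2, Myh4 and Myh7, had 14, 10 and 6 reads in all. Slow myosin-binding protein Mybpc1 followed the same order with 3, 0 and 1 reads in WT and 16, 0 and 15 in Ucp1-KO, and its fast relative Mybpc2 had 1, 2 and 0 reads in WT and 2, 2 and 2 reads in Ucp1-KO, which gives it replicates 13 and 15 highest only through the scaling by depth.

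Mybph, a further myosin-binding protein, did not follow this order. It was at 5.67, 5.57 and 5.34 RPKM in WT and at 5.18, 7.30 and 7.11 RPKM in Ucp1-KO, so that replicate 13 was the lowest culture and replicate 14 the highest. Its exons overlap those of Adora1, the adenosine A1 receptor, on the other strand, and the library kit does not mark strand, so reads of the overlap cannot be told apart. Adora1 was at 22.4, 22.2 and 22.6 RPKM in WT and at 18.8, 29.9 and 28.0 RPKM in Ucp1-KO, with the same highest, second and lowest culture as Mybph.

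The thin filament consists of actin, tropomyosin, the troponin complex that switches contraction on with calcium, and nebulin. Its 10 genes summed to 35.7, 21.9 and 20.5 RPKM in WT and to 44.3, 12 and 25 RPKM in Ucp1-KO. Skeletal actin Acta1 was at 5.60, 2.55 and 3.03 RPKM in WT and at 8.90, 2.19 and 4.66 RPKM in Ucp1-KO. Cardiac actin Actc1, which is also the actin of young myotubes, was at 1.81, 0.647 and 0.771 RPKM in WT and at 2.85, 0.167 and 1.34 RPKM in Ucp1-KO. Both actins were highest in replicate 13, second in WT replicate 10 and lowest in replicate 14, and the near identity of actin coding sequences makes the split of reads between them uncertain.

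Most of the troponins separated the cultures as the myosin heavy chains did. Slow troponin I, Tnni1, was at 0.451, 0 and 0 RPKM in WT and at 2.74, 0.0559 and 2.76 RPKM in Ucp1-KO. It was counted with 8, 0 and 0 reads in WT and with 46, 1 and 43 reads in Ucp1-KO, so the highest culture was at least 17.0 times the lowest. Fast troponin T, Tnnt3, had 2, 0 and 2 reads in WT and 32, 2 and 20 reads in Ucp1-KO, at least 11 times. Fast troponin C, Tnnc2, was at 0.507, 0.0865 and 0.163 RPKM in WT and at 2.14, 0.0837 and 1.35 RPKM in Ucp1-KO. Its exons overlap Ube2c, a gene of the mitotic ubiquitin pathway, on the other strand, which stood at 4.78, 3.93 and 2.42 RPKM in WT and at 11.1, 4.42 and 4.66 RPKM in Ucp1-KO and so shared only the highest culture with Tnnc2. Fast troponin I, Tnni2, which lies 54.4 kb from Tnnt3 on chromosome 7, was at 0.351, 0.180 and 0.338 RPKM in WT and at 1.02, 0.0870 and 1.10 RPKM in Ucp1-KO. The values of Tnni2 rest on 4, 2 and 4 reads in WT and on 11, 1 and 11 reads in Ucp1-KO. Those of Tnnc2 rest on 6, 1 and 2 reads in WT and on 24, 1 and 14 reads in Ucp1-KO. In these 4 troponins replicates 13 and 15 were on top, and replicate 14 was the lowest culture for Tnnc2 and Tnni2 and within 2 reads of the lowest for Tnni1 and Tnnt3.

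Slow and cardiac troponin C, Tnnc1, was the most abundant troponin and varied less. It was at 5.42, 3.84 and 3.85 RPKM in WT and at 7.40, 3.22 and 7.12 RPKM in Ucp1-KO, a 2.30-fold range with a counting interval of 1.55 to 3.45. Slow troponin T, Tnnt1, showed no variation detectable beyond counting error, with a 1.92-fold range and an interval of 0.488 to 8.95. Neb, the giant nebulin that spans the thin filament, had 26, 13 and 36 reads in WT and 50, 28 and 75 reads in Ucp1-KO.

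Tpm2, the beta-tropomyosin gene and the most abundant gene of the list, had another order. It was at 21.1, 14.1 and 11.9 RPKM in WT and at 16.6, 5.75 and 4.87 RPKM in Ucp1-KO, so that replicate 15 was the lowest culture rather than 1 of the highest. Tpm2 is also made by smooth muscle and by contractile stromal cells. Acta2, the smooth muscle actin, was at 181, 111 and 93.1 RPKM in WT and at 147, 37.8 and 21.8 RPKM in Ucp1-KO, and ranked the 6 cultures exactly as Tpm2 did.

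**Figure D2:**
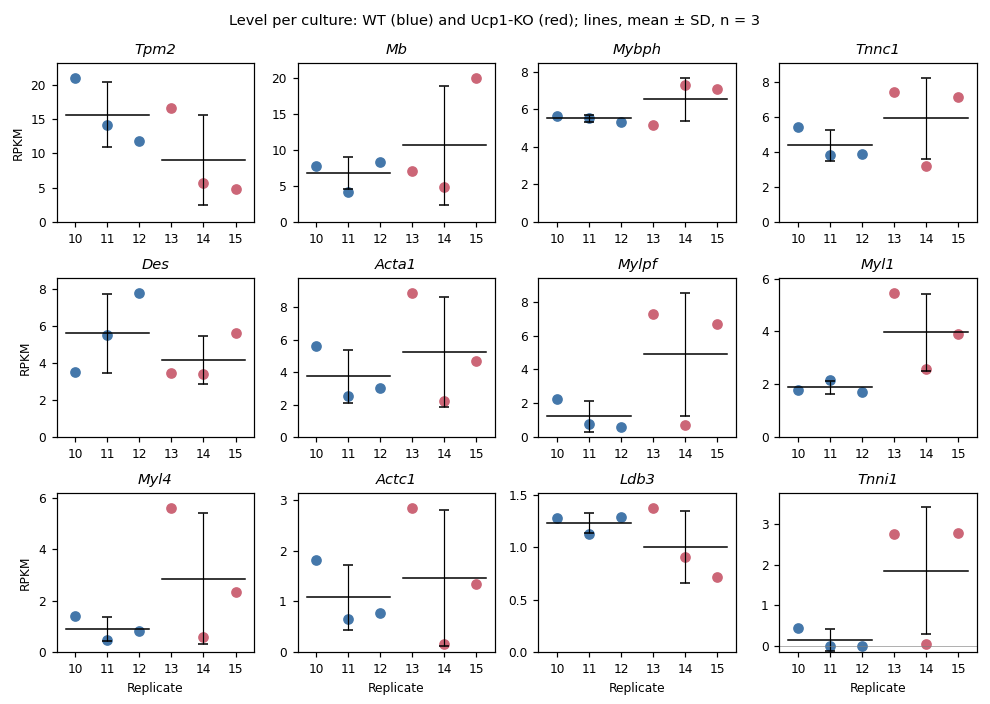
RPKM per culture for the 12 genes with a mean of at least 1 RPKM (points; WT in blue, Ucp1-KO in red; horizontal line and bar, mean ± SD, n = 3). Mylpf, Myl4 and Tnni1 show replicates 13 and 15 apart from replicate 14, while Tpm2, Des and Ldb3 have other orders.

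The Z-disc anchors the thin filaments, titin (Ttn) spans from it to the middle of the sarcomere, and desmin (Des) ties neighbouring Z-discs together. Here the genes divided. Ttn had 48, 14 and 26 reads in WT and 94, 14 and 99 reads in Ucp1-KO, and Actn2, the alpha-actinin of the Z-disc, had 3, 1 and 0 reads in WT and 6, 0 and 13 reads in Ucp1-KO. Tcap, which caps titin, had 2, 1 and 0 reads in WT and 5, 2 and 8 reads in Ucp1-KO. These 3 genes shared the order of the filament genes.

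The more abundant genes of this group did not. Des was at 3.54, 5.52 and 7.82 RPKM in WT and at 3.46, 3.40 and 5.65 RPKM in Ucp1-KO, highest in WT replicate 12. Ldb3, a PDZ-LIM protein of the Z-disc, was at 1.28, 1.12 and 1.29 RPKM in WT and at 1.38, 0.908 and 0.715 RPKM in Ucp1-KO. Actn3, the alpha-actinin of fast fibres, was at 0.657, 0.818 and 0.435 RPKM in WT and at 0.390, 0.325 and 0.608 RPKM in Ucp1-KO. Myoz1 and Myoz2, the calsarcins, had 7 reads each in all. Myoz1, with 1, 1 and 1 reads in WT and 1, 0 and 3 reads in Ucp1-KO, is counted among the 27 genes with replicates 13 and 15 highest, but replicate 13 exceeds WT there only through the scaling by depth. The 8 genes summed to 5.84, 7.65 and 9.60 RPKM in WT and to 6.01, 4.77 and 8.06 RPKM in Ucp1-KO, with WT replicate 12 highest.

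Among the genes of excitation and calcium handling, Casq2, the calsequestrin of cardiac and slow muscle, had 12, 0 and 1 reads in WT and 26, 1 and 17 reads in Ucp1-KO. The release channel Ryr1 had 3, 1 and 1 reads in WT and 12, 0 and 10 reads in Ucp1-KO. Both thus shared the order of the filament genes, as did the calcium pump Atp2a1 and the voltage sensor Cacna1s, with 67 and 11 reads in all. For Cacna1s these were 2, 1 and 0 reads in WT and 3, 2 and 3 reads in Ucp1-KO, too few to tell the cultures apart. Exons of Atp2a1 overlap Rabep2 on the other strand, which ran from 3.67 to 5.47 RPKM and was also highest in replicate 15, so reads of the overlap cannot be told apart. Casq1, the fast calsequestrin, did not, being at 0.344, 0.735 and 0.512 RPKM in WT and at 0.628, 0.186 and 0.356 RPKM in Ucp1-KO. Sln, the sarcolipin gene, had 3 reads, all in replicate 15. The 6 genes summed to 0.847, 0.871 and 0.670 RPKM in WT and to 1.59, 0.329 and 1.45 RPKM in Ucp1-KO.

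None of the 3 energy genes had replicates 13 and 15 as the highest pair. Mb, the oxygen store myoglobin, was at 7.77, 4.20 and 8.33 RPKM in WT and at 7.04, 4.83 and 20.1 RPKM in Ucp1-KO. Replicate 15 stood apart, while replicate 13 lay within the WT range. Exons of Mb overlap Apol6 on the other strand, which ran from 51.3 RPKM in replicate 15 to 97.3 RPKM in WT replicate 10. Ckm, the muscle creatine kinase and among the most abundant messages of adult muscle, had 8, 0 and 0 reads in WT and 0, 8 and 2 reads in Ucp1-KO. Pygm, the muscle glycogen phosphorylase, had 49 reads in all and a 2.53-fold range with a counting interval of 0.810 to 9.29.

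The regulators of the muscle lineage were present at traces at most. Myog was at 0.237, 0 and 0 RPKM in WT and at 1.21, 0.0392 and 0.766 RPKM in Ucp1-KO, which rests on 6, 0 and 0 reads in WT and on 29, 1 and 17 reads in Ucp1-KO. Nearly all of the reads lay in WT replicate 10 and Ucp1-KO replicates 13 and 15, as for Myh3, Myh8 and Tnni1, and the highest culture was at least 10.6 times the lowest. Myod1 had 3, 0 and 0 reads in WT and 2, 0 and 2 reads in Ucp1-KO. Myf6 had 1 read in replicate 13 and 3 in replicate 15, which is at the floor. Myf5 and Pax7 had no read in any culture, so only a level under 3 reads per library can be stated. Myog lies 88.8 kb from Mybph on chromosome 1, but the orders of these neighbours differed.

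**Figure D3:**
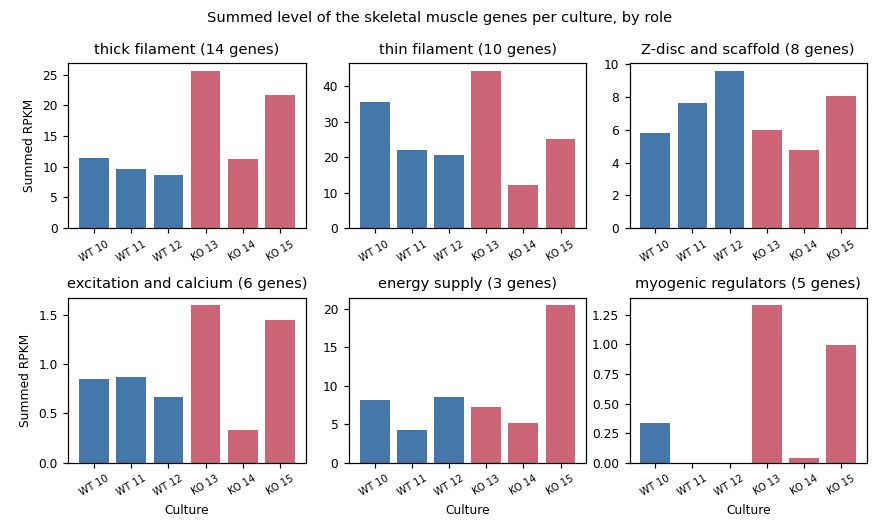
Summed RPKM (vertical axis) of the genes of each role in each culture (bars; WT in blue, Ucp1-KO in red; KO, Ucp1-KO). Thick filament, calcium and regulator genes were highest in Ucp1-KO replicates 13 and 15, the Z-disc genes in WT replicate 12 (9.60 RPKM) and the energy genes, which are mostly Mb, in replicate 15 (20.4 RPKM).

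Whether the genotype moved these genes was asked with limma on log2(RPKM + 1) over all 16865 RefSeq transcripts whose mean reached 0.5 RPKM. Of the 46 genes 16 passed this minimum, and the 30 others did not. In a fit with no minimum 44 of the genes had a value, of which 0 passed the adjusted threshold and 4 an unadjusted p under 0.05 (smallest adjusted p = 0.930, limma), against 6.22% of all transcripts with a read at an unadjusted p under 0.05. No gene of the list passed an adjusted p of 0.05 (0 of 16, against 0.0% of all transcripts), and the smallest adjusted p was 0.868 (limma, Benjamini-Hochberg). At an unadjusted p under 0.05 there were 2 of the 16, Myl1 and Tnnt3, against 5.54% of all transcripts. Tnnt3, Tnni1, Tnnc2 and Tnni2 reached the minimum only through Ucp1-KO cultures, so counts over the 16 genes are a description and do not support a difference from all transcripts. With limma-voom on the recovered reads 0 passed after adjustment and 1 at an unadjusted p under 0.05, against 0.0% and 5.3% of all transcripts. The gene that the knockout targets, Ucp1, did not pass the adjusted threshold either (adjusted p = 0.868, limma).

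The difference of Ucp1-KO minus WT was above 0 for 12 of the 16 genes and below 0 for 4, with a median of 0.34 on the log2(RPKM + 1) scale, against -0.0016 for all transcripts tested. As 4 of the genes reached the minimum only through Ucp1-KO cultures, the median is no support for a direction. The log2 difference of Myl1 was 0.75 ± 0.22 (SE, adjusted p = 0.868, limma), from means of 1.88 ± 0.253 RPKM in WT and of 3.98 ± 1.46 RPKM in Ucp1-KO (SD, n = 3). It was the only 1 of the 16 whose genotypes did not overlap, against 11.2% of all transcripts in either direction, 6.04% with Ucp1-KO higher and 5.15% with Ucp1-KO lower. The exact permutation test of Myl1 gave p = 0.1, two-sided, the smallest value that 3 against 3 cultures can give.

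Among the other troponin and light chain genes, Tnnt3 differed by 0.88 ± 0.35, Tnni1 by 1.12 ± 0.50, Mylpf by 1.18 ± 0.63 and Myl4 by 0.81 ± 0.49 (log2, ± SE, higher in Ucp1-KO), and none of them passed the adjusted threshold. Smaller differences were found for Tnnc2 with 0.69 ± 0.38, Tnni2 with 0.37 ± 0.26 and Tnnc1 with 0.31 ± 0.28, which did not pass either. Single cultures moved these values. With each culture left out, Tnnc2 ranged from 0.36 to 1.13, Tnnc1 from 0.14 to 0.63 and Myl4 from 0.31 to 1.34, lowest without Ucp1-KO replicate 13 and highest without replicate 14. Tnni2 ranged from 0.20 without replicate 15 to 0.68 without replicate 14. Mylpf ranged from 0.78 without replicate 13 to 1.93 without replicate 14, Tnni1 from 0.81 without replicate 15 to 1.73 without replicate 14, and Tnnt3 from 0.59 without replicate 13 to 1.30 without replicate 14.

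The size of the differences of low genes also depended on the constant and the model. With a constant of 0.1 RPKM and with limma-voom, Tnni1 differed by 2.62 and 3.52, Tnnt3 by 2.38 and 3.06, Tnnc2 by 1.44 and 1.53 and Tnni2 by 0.73 and 0.71 (log2), again with 0 genes past the adjusted threshold.

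Across the remaining genes, Acta1 differed by 0.31 ± 0.43, Actc1 by 0.12 ± 0.44 and Mb by 0.41 ± 0.48, which is within the spread of the cultures. The sign of these 3 rested on single cultures, since Acta1 stood at -0.10 and Actc1 at -0.29 without Ucp1-KO replicate 13, and Mb at -0.14 without Ucp1-KO replicate 15. Actc1 also changed sign without WT replicate 11 (-0.03) and with limma-voom (-0.17). With Ucp1-KO the lower group, Tpm2 differed by -0.87 ± 0.43, Des by -0.33 ± 0.27, Actn3 by -0.18 ± 0.15 and Ldb3 by -0.17 ± 0.15, again without passing. Tpm2 was at -1.37 without replicate 13 and at -0.58 without replicate 15, and Des at -0.58 without WT replicate 10 and at -0.10 without WT replicate 12. Ldb3 ranged from -0.30 without replicate 13 to -0.066 without replicate 15, and Actn3 from -0.27 without WT replicate 12 to -0.10 without WT replicate 11. With a constant of 0.1 RPKM and with limma-voom Ldb3 was at -0.32 and -0.34, and Actn3 at -0.44 and -0.53.

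Spread between cultures of the same genotype was wide for these genes. Its median over the 16 was an SD of 0.56 on the log2(RPKM + 1) scale, against 0.17 for all transcripts tested and 0.18 for those with a mean of 0.5 to 15 RPKM. The SD of 15 of the 16 lay above the median of all transcripts, and that of 11 above the 90th percentile of 0.40. The widest were Mylpf with 0.995, Tnni1 with 0.78, Myl4 with 0.77 and Mb with 0.76, and the narrowest was Actn3 with 0.16. Tnnt3, Tnni1, Tnnc2 and Tnni2 reached the minimum only through Ucp1-KO cultures while replicate 14 was low, which in itself widens their spread. The list was also made with the values known, so these counts are a description.

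The comparison depended on Ucp1-KO replicate 14. Without it, 8 of the 16 genes had non-overlapping genotypes and 8 had an unadjusted p under 0.05, against 17.9% and 3.57% of all transcripts in the same fit. These 8 were Tnnc1, Mylpf, Myl1, Myl4 and the 4 genes that reached the minimum only through Ucp1-KO cultures, and replicate 14 was already seen to be low for them, so the shares are not support for a difference. The median difference was then 0.70, and still 0 genes passed the adjusted threshold (smallest adjusted p = 0.431, limma). Without replicate 13 or 15 the genotypes of 4 or 3 of the 16 did not overlap, against 27.8% or 20.5% of all transcripts. Without WT replicate 10, 11 or 12 it was 3, 1 or 2 of the 16, against 32.8%, 14.4% or 16.7%.

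**Figure D4:**
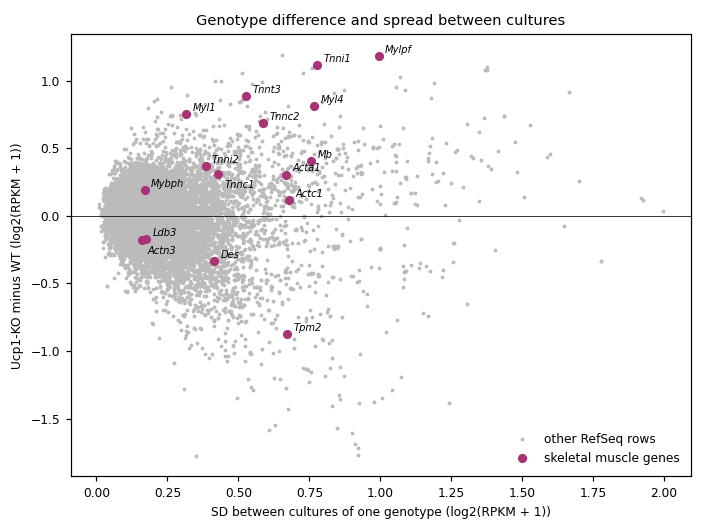
Difference between the genotypes (vertical axis, Ucp1-KO minus WT, log2(RPKM + 1)) against the SD between cultures of one genotype (horizontal axis, same scale) for the 16 skeletal muscle genes tested (purple) and all other RefSeq transcripts tested (grey). Of the 16, 11 lie beyond the 90th percentile of the spread (0.40), and Myl1 combines a difference of 0.75 with a spread of 0.32. The count is a description, as the genes were listed with the values known.

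A second list held 51 further genes of striated muscle, all with a read. Of these 12 were tested, 6 higher and 6 lower in Ucp1-KO with a median log2 difference of -0.04. With limma 0 passed the adjusted threshold and 0 an unadjusted p under 0.05, against 0.0% and 5.54% of all transcripts, and with limma-voom 0 did so unadjusted, against 5.3%. Among the 8 most abundant were the light chain Myl6b, the small heat shock protein Hspb7, the cytochrome oxidase subunit Cox6a2, the enolase Eno3, the calcium-binding protein Srl, the stress-induced Ankrd1 and the ubiquitin ligase Fbxo32. Myl6b, for example, was at 7.59, 9.29 and 8.74 RPKM in WT and at 8.57, 8.37 and 8.84 RPKM in Ucp1-KO.

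Among the low genes of the second list the order of the filament genes was found for those with few reads. Replicates 13 and 15 were the highest pair for 24 of the 41 with a mean under 1 RPKM (20 of these also by reads alone) and for 0 of the 10 with a higher mean. In the first list the same held for 22 of 32 and 5 of 12. Myom2, the M-band protein of fast fibres, had 4, 0 and 0 reads in WT and 22, 0 and 15 reads in Ucp1-KO. Xirp2, an actin-binding protein of the myofibre, had 3, 1 and 2 reads in WT and 16, 2 and 15 reads in Ucp1-KO, and Cav3, the muscle caveolin, had 2, 2 and 0 reads in WT and 16, 0 and 5 reads in Ucp1-KO. These 3 were chosen after their values were seen. The 5 genes of this low set with the most reads had other orders. Jph1 and Jph2, the junctophilins that hold the surface membrane to the calcium store, had 387 and 176 reads in all and were lowest in Ucp1-KO replicate 13 for Jph1 and in replicate 15 for Jph2. Myom1, an M-band protein, had 27, 37 and 32 reads in WT and 18, 16 and 16 reads in Ucp1-KO, lower in every Ucp1-KO culture. Ankrd2 and Myom3, with 94 and 86 reads, were both lowest in replicate 13. In the same list Xirp1 and Mylk2, with 19 and 15 reads in all, went against Myom1 and were higher in every Ucp1-KO culture. Of all transcripts tested, 5.15% were lower and 6.04% higher in every Ucp1-KO culture. Myom1, Xirp1 and Mylk2 were under the minimum of 0.5 RPKM and were not tested.

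Of 13 genes of myogenic commitment and fusion with a read, 4 had replicates 13 and 15 highest. The acetylcholine receptor subunit Chrna1 had 5, 2 and 2 reads in WT and 9, 0 and 8 reads in Ucp1-KO, and the fusion gene listed as Tmem8c had 2, 0 and 0 reads in WT and 5, 0 and 2 reads in Ucp1-KO. For Tmem8c replicate 15 exceeds WT replicate 10 only through the scaling by depth. The better counted genes of this list had other orders, as the integrin Itga7 (3672 reads in all), Megf10 (405) and Heyl (188) were each lowest in replicate 15. Pax3, the dermomyotome regulator, had no read, and the cadherin Cdh15 had 3 in all. Of 9 cardiac genes with a read, 3 shared the order, among them Tnnt2, a troponin that immature skeletal muscle also makes, at 0.470, 0.107 and 0.201 RPKM in WT and at 1.38, 0 and 1.25 RPKM in Ucp1-KO. The other 2, Mybpc3 and Nppa, had 1, 0 and 0 reads each in WT and 1, 1 and 1 or 1, 1 and 4 reads in Ucp1-KO, so that replicate 13 exceeds WT replicate 10 and replicate 14 only through the scaling by depth. Further cardiac genes had other orders, as Ryr2 (210 reads) was highest in replicate 14, Hcn4 (58 reads) in replicate 15 and then WT replicate 11, and Tnni3 (20 reads) in WT replicates 11 and 12. The atrial and ventricular genes Myl7, Myh6 and Nppb had 1, 3 and 0 reads in all.

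In the lists of smooth muscle, macrophage, endothelial, stromal and brown adipocyte genes, none had replicates 13 and 15 as the highest pair. The smooth muscle and mural list summed to 400, 285 and 224 RPKM in WT and to 319, 107 and 72.9 RPKM in Ucp1-KO, and 0 of its 12 genes had replicates 13 and 15 highest. The macrophage list was at 64.8, 209 and 120 RPKM in WT and at 177, 890 and 43.5 RPKM in Ucp1-KO, and each of its 7 genes with a transcript entry was highest in replicate 14, the culture lowest in the summed muscle genes. The endothelial list was at 3.09, 40.6 and 18.6 RPKM in WT and at 8.13, 18.8 and 6.68 RPKM in Ucp1-KO. The preadipocyte and stromal list was at 934, 2116 and 1292 RPKM in WT and at 1328, 1157 and 839 RPKM in Ucp1-KO. The brown adipocyte list summed to 30709 to 34272 RPKM, most of it Fabp4, and 0 of its 10 genes had replicates 13 and 15 highest. Single genes of this list varied more, with a 5.79-fold range for Ucp1, 2.25-fold for Ppargc1a, a coactivator of mitochondrial genes, and 2.23-fold for the lipid droplet gene Cidea. Plin1 and Ppargc1a of this list and Dlk1 of the stromal list had replicates 13 and 15 and WT replicate 10 as their highest cultures. WT replicate 10 was second in each of them, as it was for Acta1 and Actc1. The part of the cell mixture in the muscle transcripts was not tested.

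**Figure D5:**
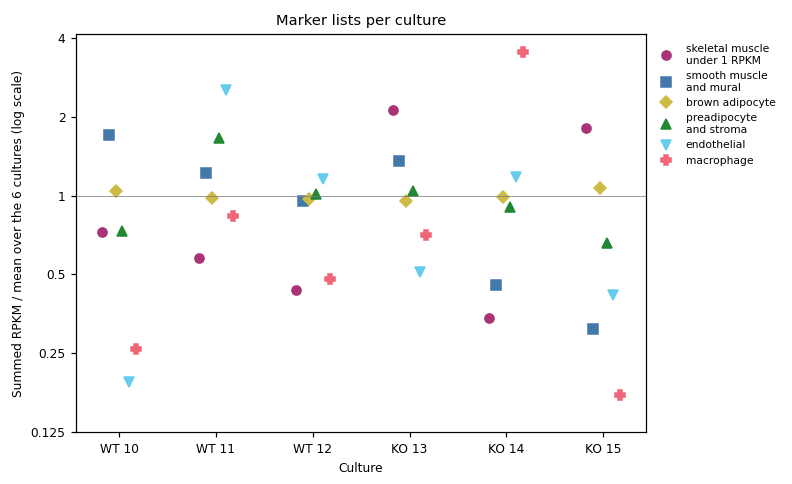
Summed RPKM of 6 gene lists in each culture, divided by the mean of the list over the 6 cultures (vertical log axis; points, 1 per list and culture, KO for Ucp1-KO). Muscle genes with a mean under 1 RPKM were high in Ucp1-KO replicates 13 and 15, macrophage genes in replicate 14 and smooth muscle genes in WT replicate 10, while the brown adipocyte sum, most of it Fabp4, stayed near 1.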

How the data were processed

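RNA of 6 cultures was made into libraries with a kit that does not mark strand, and 50 bases of each fragment were read from one end. Mapping by the authors was to NCBI build 38 of the mouse genome. The deposited table holds RPKM values, computed per transcript with Genomatix software from reads with a single placement. Transcripts of 1 gene share reads in this table. The version of the annotation is not given in the sources used here. Reads per transcript and library totals of 14989604 to 17727653 were recovered from the RPKM values. For 98.71% of the transcripts tested all 6 values came out whole within 0.03 reads. Every column of the table was matched to a sample (0 left over).

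For the comparison of the genotypes limma 3.58.1 (R 4.3.3) was run on log2(RPKM + 1) with an intensity trend, over all RefSeq transcripts whose mean reached 0.5 RPKM, Ucp1-KO minus WT, adjusted by Benjamini-Hochberg over all of them. A fold change on this scale understates the change of low genes. With 3 against 3 cultures an exact permutation test cannot go below p = 0.1. The fit and the recovery of reads were tested on simulated data. A culture at 0 was set to a floor of 3 reads for a fold. Intervals of a fold between libraries are exact binomial intervals at 95% and, as the reads carry no molecular identifiers, cover counting error only.

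The genes and all gene lists were chosen with earlier results of these data known. Values in every culture are given for the genes with a mean of at least 1 RPKM and for the 5 regulators, with other genes by counts, reads or examples, and of the further striated muscle genes the 8 highest are named, except for 1 that is not reported here. Alternatives were another constant, minimum, annotation, scaling and model, and leaving out each culture. No sequence of a protein was used here. Gene positions and promoter sequences are from RefSeq on GRCm38.p6, and exon overlaps from GENCODE vM21 on the same build. With these, 19 of the 46 genes had an exon overlapping another gene, in every case on the other strand, and 6 overlapped a protein-coding gene.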

Additional observations from a re-analysis of the deposited data

How the results depend on the processing

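Under all 13 alternatives 0 of the skeletal muscle genes and 0 of the further striated muscle genes passed the adjusted threshold, and the smallest adjusted p of a skeletal muscle gene lay between 0.431 and 0.999 (limma). The median log2 difference stayed above 0, between 0.18 and 0.70 with each culture left out, and at 0.10 over 44 genes with no minimum abundance. The medians with a culture left out include Tnnt3, Tnni1, Tnnc2 and Tnni2, which reached the minimum only through Ucp1-KO cultures. The sign of the median is therefore no support for a direction. The number of genes with non-overlapping genotypes ranged from 1 to 8 with each culture left out, where fewer cultures make such gaps more frequent for all transcripts. Summed over every RefSeq transcript of a gene, which counts shared reads repeatedly, the skeletal muscle genes came to 83.3, 57.5 and 71.5 RPKM in WT and, in Ucp1-KO replicates 13, 14 and 15, to 126, 48.1 and 137 RPKM, so that replicate 15 then led and replicate 14 stayed lowest. In 2 alternatives added after seeing the data, Ucp1-KO replicates 13 and 15 were the highest pair for 17 of 28 genes with at least 30 reads, and for 27 of 44 after median-of-ratios scaling. Of 200 log2 differences of the 16 genes tested, 6 changed sign. That of Mb was -0.14 without Ucp1-KO replicate 15 (range with each culture left out -0.14 to 0.79) and that of Acta1 -0.10 without Ucp1-KO replicate 13 (-0.10 to 0.72). That of Actc1 was -0.043 with a constant of 0.1 RPKM, -0.17 with limma-voom, -0.03 without WT replicate 11 and -0.29 without Ucp1-KO replicate 13 (-0.29 to 0.58). The cause was not tested. No paired analysis was possible because WT and Ucp1-KO have no replicate number in common. At 14989604 to 17727653 reads per library, a gene without a read is only known to lie under 3 reads.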

Other observations

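Of the 492 RefSeq genes outside the list with a mean of at least 1 RPKM and a highest culture at least 4 times the lowest, 10 were singled out by the correlation of their log2(RPKM + 1) with the mean standardised level of the 12 skeletal muscle genes of at least 1 RPKM. They were Ckap2l, 1300015D01Rik, Ccnb2, Ctcfl, Mlxipl, Tpx2, Prr11, Ckap2, Plk1 and Pbk, with Pearson r from 0.73 to 0.79 over 6 cultures that share their libraries, given as a description. Ccnb2, a mitotic cyclin, was at 2.20, 1.21 and 0.915 RPKM in WT and at 5.83, 1.77 and 2.08 RPKM in Ucp1-KO. Plk1, a mitotic kinase, was at 1.38, 1.01 and 0.947 RPKM in WT and at 5.06, 1.42 and 1.54 RPKM in Ucp1-KO. Both were highest in Ucp1-KO replicate 13, as were Mylpf and Myl4, but in replicate 15 they lay near WT replicate 10, where those muscle genes were high. 1300015D01Rik and Ctcfl had replicates 13 and 15 highest, with 11.8 and 8.52 RPKM for the former and 4.27 and 3.32 RPKM for the latter. Mlxipl, which encodes the carbohydrate response factor ChREBP, was at 34.8, 11.7 and 15.3 RPKM in WT and at 51.4, 19.4 and 22.2 RPKM in Ucp1-KO.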
